A study of Mus musculus with 12 samples.

Results

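The mitochondrially encoded genes are the 37 genes of the mouse mitochondrial genome: 13 that encode proteins, 2 that encode ribosomal RNAs and 22 that encode transfer RNAs. Members were chosen by name only, as the genes of the deposited count table whose symbol begins with mt-, and they make up 37 of its 54532 genes. RNA-seq counts came from whole kidneys of 12 C57BL/6 mice (C57BL/6 J background) that were 18 days old, in 4 groups of 3. All mice carried the Pkd1 RC allele, a missense hypomorphic allele of Pkd1, opposite a floxed Pkd1 allele (Pkd1 RC/F). Cystic mice also carried KspCre, a Cre recombinase driven by the Ksp promoter in kidney tubules, which deletes the floxed allele (Pkd1 RC/-), and noncystic mice lacked Cre (equivalent to Pkd1 RC/+). Within each state, mice were either Pkd2 wild type (Pkd2 +/+) or homozygous for Pkd2 Δ17, an allele whose 3′-UTR lacks its miR-17 motif after CRISPR editing (Pkd2 Δ17/Δ17), so the design asked how cyst formation and this deletion relate to the kidney transcriptome. Cre was active in tubule cells, whereas RNA came from the whole organ, so fewer cells of a type and less RNA per cell cannot be told apart in these samples.

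The mitochondrial genome is a small circle, present in many copies per cell, that is transcribed from both strands as long polycistronic RNAs. In the usual account, tRNAs that lie between the other genes are cut out, which releases the mRNAs and rRNAs, and most mRNAs are then polyadenylated. The 13 proteins are subunits of complexes I, III and IV of the respiratory chain and of ATP synthase, and the remaining subunits of these complexes are encoded in the nucleus. Kidney tubules, and the proximal tubule above all, are rich in mitochondria because salt and solute reabsorption consumes much ATP.

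All 37 members had a position in the GENCODE M21 annotation of GRCm38, on chromosome M. There, 28 members lie on the heavy-strand transcript and 9 on the light-strand transcript, which holds mt-Nd6 and 8 tRNA genes. Genes are packed end to end and in places overlap. The 3′ ends of mt-Nd5 (chrM:11742-13565) and mt-Nd6 (chrM:13552-14070) face each other on opposite strands over 14 shared bases, shown in capitals because a read there lies in both genes.

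mt-Nd5, last 30 bases: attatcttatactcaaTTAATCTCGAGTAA
mt-Nd6, last 30 bases: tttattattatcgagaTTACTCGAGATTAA

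Of the 13 coding genes, mt-Co3, mt-Nd4 and mt-Cytb end in a single T after the last full codon, so the gene itself encodes only the first base of the TAA stop. It is textbook knowledge that polyadenylation of the mRNA supplies the other bases. The ends of mt-Co1, which has a complete stop, and of mt-Nd4 and mt-Cytb show this difference, with the encoded stop or its first base in capitals.

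mt-Co1, bases 1516 to 1545, chrM:6843-6872: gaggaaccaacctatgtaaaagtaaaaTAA
mt-Nd4, bases 1349 to 1378, chrM:11515-11544: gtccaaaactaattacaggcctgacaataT
mt-Cytb, bases 1115 to 1144, chrM:15259-15288: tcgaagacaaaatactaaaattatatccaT

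Total counts ran from 18800307 to 20928017 in the noncystic and from 19326839 to 24453033 in the cystic mice. Levels below are counts per 1000000 counts (CPM) scaled by the trimmed mean of M-values (TMM), and differences are log2 fold changes from edgeR's quasi-likelihood test over 24642 genes, with p-values adjusted by the Benjamini-Hochberg method and called under 0.05. P-values weigh a difference between groups against the spread between these mice. Of the 37 members, 17 passed the filter on low counts (a mean log2CPM of at least -3), namely all 13 coding genes, both rRNA genes and 2 of 22 tRNA genes.

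The mitochondrial genome took a smaller share of the counts in cystic kidneys. The 37 members held 6.51%, 6.30% and 6.28% of all counts in the 3 noncystic Pkd2 +/+ mice, a mean of 6.36% ± 0.128 (SD, n = 3). In the noncystic Pkd2 Δ17/Δ17 mice they held 6.60%, 6.04% and 6.06%, a mean of 6.23% ± 0.315 (SD, n = 3). In the cystic Pkd2 +/+ mice the share was 3.69%, 3.06% and 3.82%, a mean of 3.52% ± 0.405 (SD, n = 3), and in the cystic Pkd2 Δ17/Δ17 mice it was 3.63%, 3.97% and 3.55%, a mean of 3.71% ± 0.222 (SD, n = 3). Every cystic mouse lay below every noncystic mouse, while the Pkd2 genotypes overlapped within the cystic state and within the noncystic state. The lowest share belonged to mouse 26, a cystic Pkd2 +/+ animal, without which the mean of its group was 3.75%.

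**Figure D1:**
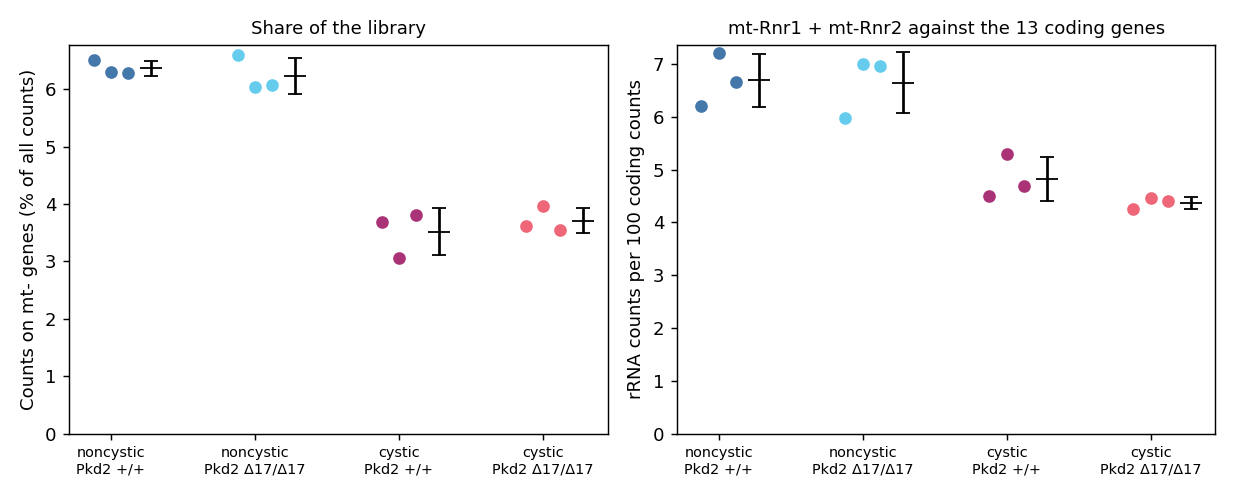
Left, share of all counts on the 37 mt- genes (percent, y axis) per mouse in the 4 groups. Right, counts on mt-Rnr1 and mt-Rnr2 per 100 counts on the 13 coding genes. Points are mice, and the bars beside them give the mean and SD of 3 mice. Noncystic shares run from 6.04% to 6.60% and cystic shares from 3.06% to 3.97%, and the rRNA ratio runs from 5.98 to 7.21 without cysts and from 4.25 to 5.29 with cysts.

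Per kilobase, levels within the genome spanned several orders of magnitude. In noncystic Pkd2 +/+ kidneys mt-Co1, the catalytic core subunit of complex IV, was highest at 16988 ± 178 CPM per kilobase (SD, n = 3). It was followed by mt-Cytb, the cytochrome b of complex III, at 12425 ± 332 and by mt-Nd1, a membrane subunit of complex I, at 8981 ± 426 CPM per kilobase. Further complex I subunits came next, with mt-Nd2 at 4450 ± 83.8, mt-Nd4 at 3171 ± 299 and mt-Nd5 at 2251 ± 275 CPM per kilobase. The small-subunit rRNA gene mt-Rnr1 (1747 ± 120 CPM per kilobase), the light-strand complex I gene mt-Nd6 (1730 ± 122) and the large-subunit rRNA gene mt-Rnr2 (1613 ± 113) overlapped with their neighbours in this order. A wide gap followed, down to mt-Co2, the copper-binding subunit of complex IV, at 21.1 ± 1.02 CPM per kilobase. Below it stood mt-Co3 of complex IV at 16.2 ± 0.593, mt-Nd3 of complex I at 10.7 ± 1.61, mt-Atp6 of ATP synthase at 9.57 ± 0.913, mt-Atp8 of ATP synthase at 3.21 ± 0.309 and mt-Nd4l of complex I at 0.730 ± 0.365 CPM per kilobase. Apart from mt-Rnr1, mt-Nd6 and mt-Rnr2, and from mt-Nd3 and mt-Atp6, the 3 mice of neighbouring genes in this order did not overlap.

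**Figure D2:**
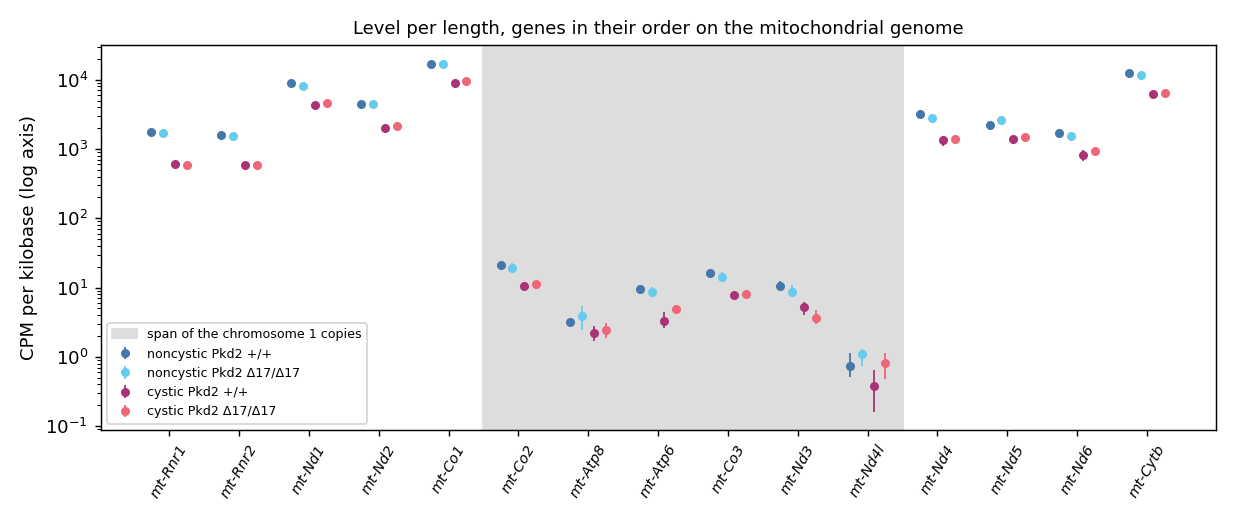
Level per length (CPM per kilobase, log axis) of the 13 coding and 2 rRNA genes in their order along the mitochondrial genome. Points are means of 3 mice and lines run from the lowest to the highest mouse; the grey band marks the 6 coding genes within the span of the annotated copies on chromosome 1, of which mt-Atp8 has no annotated copy. Within the band mt-Co2 is highest at 21.1 CPM per kilobase in noncystic Pkd2 +/+ kidneys, and outside it mt-Rnr2 is lowest at 1613.

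The low genes lay side by side in a stretch flanked and largely covered by near-identical annotated copies on nuclear chromosome 1. Annotated pseudogenes Gm29216, Gm28661, Gm10925, Gm28437, Gm28438, Gm10222 and Gm28439, 7 in all between chr1:24611535 and chr1:24616197 on the minus strand, follow the order of mt-Co1, mt-Co2, mt-Atp6, mt-Co3, mt-Nd3, mt-Nd4l and mt-Nd4. They correspond to chrM:6390-11042, a span of 4653 bases that holds 6 coding genes whole. One of them, mt-Atp8, matched no annotated pseudogene: it lies between the genes matched by Gm28661 and Gm10925, and its identity to chromosome 1 was not measured. These 6 had between 1 and 283 counts in any mouse, whereas the other 7 coding genes, including mt-Co1 and mt-Nd4 that lie partly outside the span, had between 7151 and 518755. Identity over the aligned bases was 100% for Gm28661 with mt-Co2, Gm10925 with mt-Atp6, Gm28437 with mt-Co3, Gm10222 with mt-Nd4l and Gm28439 with mt-Nd4. It was 99.7% for Gm28438 with mt-Nd3 and 99.8% for Gm29216 with mt-Co1. A more diverged copy on chromosome 2, with 95.9% identity to mt-Co2 (Gm13341) and 97.6% to mt-Co1 (Gm13340), is shown beside it for contrast. In the lines below, capitals in the copies mark bases that differ from the mitochondrial gene, and substitutions are counted from 1 at the 5′ end of that gene.

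mt-Co2, bases 11 to 40, chrM:7023-7052: cattccaacttggtctacaagacgccacat
Gm28661, chr1:24615526-24615555, minus strand: cattccaacttggtctacaagacgccacat
Gm13341, chr2:22587923-22587952, minus strand: cattccaacttggtTtacaagacgccacat
mt-Co1, bases 1063 to 1092, chrM:6390-6419: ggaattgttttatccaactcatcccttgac
Gm29216, chr1:24616159-24616188, minus strand: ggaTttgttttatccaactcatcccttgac
Gm13340, chr2:22588556-22588585, minus strand: ggaattgttCtatccaactcatcccttgac

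Over these windows Gm28661 equals mt-Co2, Gm13341 carries C25T, Gm29216 carries A1066T and Gm13340 carries T1072C. STAR, the aligner of the study, counts in its gene table only reads that align to a single place, so a read that fits mt-Co2 and Gm28661 equally well enters neither count. The share of reads set aside in this way was not tested, since only gene counts were used here. The levels of mt-Co2, mt-Co3, mt-Atp6, mt-Nd3 and mt-Nd4l are therefore uncertain, and so are those of mt-Co1 and mt-Nd4, of which 31.3% and 63.6% of the bases lie in the copy. Divided by the bases outside the copy, mt-Co1 stood at 24714 ± 259 CPM per kilobase, still the highest. By the same measure mt-Nd4 stood at 8705 ± 821 CPM per kilobase, above mt-Nd2 and close to mt-Nd1.

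Cystic kidneys held less RNA of both mitochondrial rRNAs than noncystic kidneys, and this was the steepest difference among the well-counted members. The 5′ ends of both genes are shown to identify them, mt-Rnr1 (the 12S rRNA of the small subunit, chrM:70-1024) and mt-Rnr2 (the 16S rRNA of the large subunit, chrM:1094-2675).

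mt-Rnr1, bases 1 to 30, chrM:70-99: aaaggtttggtcctggccttataattaatt
mt-Rnr2, bases 1 to 30, chrM:1094-1123: actaatcctagccctagccctacacaaata

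Levels of mt-Rnr1 were 1584, 1799 and 1621 CPM in noncystic and 598, 562 and 608 CPM in cystic Pkd2 +/+ mice. Cystic values were all far below noncystic ones, with a log2 fold change of -1.501 ± 0.0980 (SE, adjusted p = 2.28e-08). For mt-Rnr2 the levels were 2377, 2734 and 2543 CPM in noncystic and 903, 905 and 1000 CPM in cystic Pkd2 +/+ mice, a log2 fold change of -1.45 ± 0.0929 (SE, adjusted p = 2.05e-08). Again no mouse of one state reached the other. In Pkd2 Δ17/Δ17 mice mt-Rnr1 stood at 1552, 1603 and 1723 CPM without cysts and at 523, 624 and 509.7 CPM with cysts, a log2 fold change of -1.56 ± 0.0982 (SE, adjusted p = 4.79e-08). The corresponding log2 fold change of mt-Rnr2 was -1.41 ± 0.0928 (SE, adjusted p = 7.70e-08).

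Against the coding genes, both rRNAs took a smaller part in cystic kidneys. Per 100 coding counts, mt-Rnr1 and mt-Rnr2 together had 6.20, 7.21 and 6.66 counts in the noncystic and 4.50, 5.29 and 4.68 in the cystic Pkd2 +/+ mice, and 5.98, 6.99 and 6.96 in the noncystic and 4.25, 4.47 and 4.41 in the cystic Pkd2 Δ17/Δ17 mice. All 6 noncystic mice lay above all 6 cystic mice. Per 100 counts of mt-Rnr2, mt-Rnr1 had 63.8 to 71.0 counts in noncystic and 58.0 to 66.2 in cystic mice, ranges that overlap. In Pkd2 +/+ mice alone they overlapped too, at 63.8 to 66.6 without and 60.8 to 66.2 with cysts. In Pkd2 Δ17/Δ17 mice they did not, at 63.8, 65.5 and 71.0 without and 59.5, 62.6 and 58.0 with cysts. Whether libraries were made by poly(A) selection or by removal of rRNA is not given in the sources used here, and its part in the rRNA levels was not tested.

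Of the 17 members tested, 14 fell in cystic against noncystic Pkd2 +/+ kidneys and none rose, by edgeR's quasi-likelihood test. Among all genes tested 14.2% fell and 16.9% rose, so that 31.1% were called in either direction. The median log2 fold change was -1.06 over the 17 members and 0.02 over all genes tested. In 15 of 17 members all cystic mice lay below all noncystic mice, against 19.7% of all genes tested.

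The well-counted complex I genes fell together, among them mt-Nd4, which lies partly in the copied stretch. mt-Nd1 fell from 8724, 8922 and 8138 CPM to 4119, 3766 and 4496 CPM (log2 fold change -1.06 ± 0.116 SE, adjusted p = 2.81e-06). mt-Nd2, a further membrane subunit, fell from 4714, 4544 and 4599 CPM to 2219, 1768 and 2283 CPM (-1.14 ± 0.111 SE, adjusted p = 8.34e-07). For mt-Nd4, a proton-pumping subunit, levels were 4787, 4362 and 3962 CPM without and 1856, 1541 and 2149 CPM with cysts (-1.24 ± 0.132 SE, adjusted p = 2.04e-06). In each of these genes the lowest noncystic mouse stood well above the highest cystic mouse. mt-Nd5, likewise a proton-pumping subunit, changed least among the well-counted members, from 4102, 3608 and 4610 CPM to 2773, 2176 and 2658 CPM (-0.70 ± 0.120 SE, adjusted p = 0.000239).

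mt-Nd6, the only coding gene on the light-strand transcript, stood at 899.6, 960.4 and 834 CPM in noncystic and at 428, 350.1 and 508 CPM in cystic Pkd2 +/+ mice. Its log2 fold change of -1.07 ± 0.123 (SE, adjusted p = 4.49e-06) lay within the range of the heavy-strand genes. Per 1000 counts on the other coding genes, mt-Nd6 had 12.6 to 15.5 counts in noncystic and 12.8 to 15.9 in cystic mice, so the proportion between the strands overlapped between the states. The strand setting of the counting is not given in the sources used here, and reads of the opposite strand across mt-Nd6 cannot be told apart from its own if strand was ignored.

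mt-Cytb of complex III stood at 14651, 14028 and 13964 CPM in noncystic and at 7376, 6326 and 7404 CPM in cystic Pkd2 +/+ mice (-1.01 ± 0.116 SE, adjusted p = 4.00e-06). mt-Co1 of complex IV stood at 25929, 26422 and 26389 CPM in noncystic and at 14534, 11813 and 14851 CPM in cystic mice (-0.93 ± 0.119 SE, adjusted p = 1.20e-05). Mouse 26 was the lowest cystic animal for both genes. Among all counts on the mitochondrial genome mt-Co1 took the most, 38.2% to 40.4% without cysts and 40.3% to 42.8% with cysts.

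Within the span of these copies, 4 of 6 coding genes fell. mt-Atp6 had 6.91, 6.84 and 5.80 CPM in noncystic and 2.98, 1.76 and 1.93 CPM in cystic Pkd2 +/+ mice, a log2 fold change of -1.54 ± 0.218 (SE, adjusted p = 3.64e-05). The log2 fold change was -1.01 for mt-Co2 (adjusted p = 2.56e-05), -1.07 for mt-Co3 (adjusted p = 2.63e-05) and -1.03 for mt-Nd3 (adjusted p = 0.00557). mt-Atp8, with 8 to 20 counts in any mouse, and mt-Nd4l, with 1 to 7, were not called (log2 fold changes -0.54 and -0.85, adjusted p = 0.377 and 0.414). The median log2 fold change of the 6 genes inside the span was -1.02, beside -1.06 for the 7 other coding genes. The nuclear copies themselves were counted at similarly low numbers, and the 8 with a mean of at least 10 counts all fell between the same groups, with log2 fold changes from -1.23 to -0.84 and adjusted p of at most 0.0215. These 8 were Gm28439, Gm28438, Gm28437, Gm10925, Gm28661 and Gm29216 on chromosome 1 and Gm13341 and Gm13340 on chromosome 2. Gm10222 on chromosome 1, with a mean of 7.75 counts, was not called (-0.14, adjusted p = 0.912).

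Transcripts of the tRNA genes were almost absent from the counts. In all 12 mice 17 of 22 tRNA genes had no count, which allows a level of up to 0.123 to 0.160 CPM by the floor of 3 counts per mouse. mt-Tq had at most 2 counts in a mouse, mt-Te at most 2 and mt-Tn at most 1. mt-Tc had 1 to 12 counts and was not called (log2 fold change -1.45 ± 0.746 SE, adjusted p = 0.163). mt-Tp, the proline tRNA gene on the light-strand transcript next to the control region (chrM:15356-15422), was the exception with 939 to 2500 counts. It stood at 122, 131 and 127 CPM in noncystic and at 74.0, 61.6 and 67.7 CPM in cystic Pkd2 +/+ mice (-0.90 ± 0.115 SE, adjusted p = 1.35e-05), and no cystic mouse reached the noncystic range. The heavy-strand transcript can continue past this gene, so the note on strand for mt-Nd6 holds for mt-Tp too.

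In Pkd2 Δ17/Δ17 mice the same comparison called 14 of 17 members lower and none higher, where 10.2% of all genes tested fell, 12.8% rose and 23% were called in either direction. The median log2 fold change was -0.84 over the members and 0.00 over all genes tested, and groups did not overlap for 14 of 17 members that were lower, against 17.7% of all genes tested. The mice differ from those of the Pkd2 +/+ comparison, and each set of values has its own controls. mt-Nd2 (-1.06), mt-Nd3 (-1.24), mt-Tp (-1.03) and mt-Nd4 (-0.99) followed the rRNAs in size, and mt-Nd1 (-0.85), mt-Cytb (-0.90), mt-Co1 (-0.83), mt-Co2 (-0.78), mt-Co3 (-0.84), mt-Atp6 (-0.83), mt-Nd5 (-0.79) and mt-Nd6 (-0.71) were called as well, with adjusted p of at most 0.00871. mt-Atp8 (-0.67), mt-Nd4l (-0.43) and mt-Tc (0.69) were not called. Among the 8 named nuclear copies 5 fell in these mice.

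**Figure D3:**
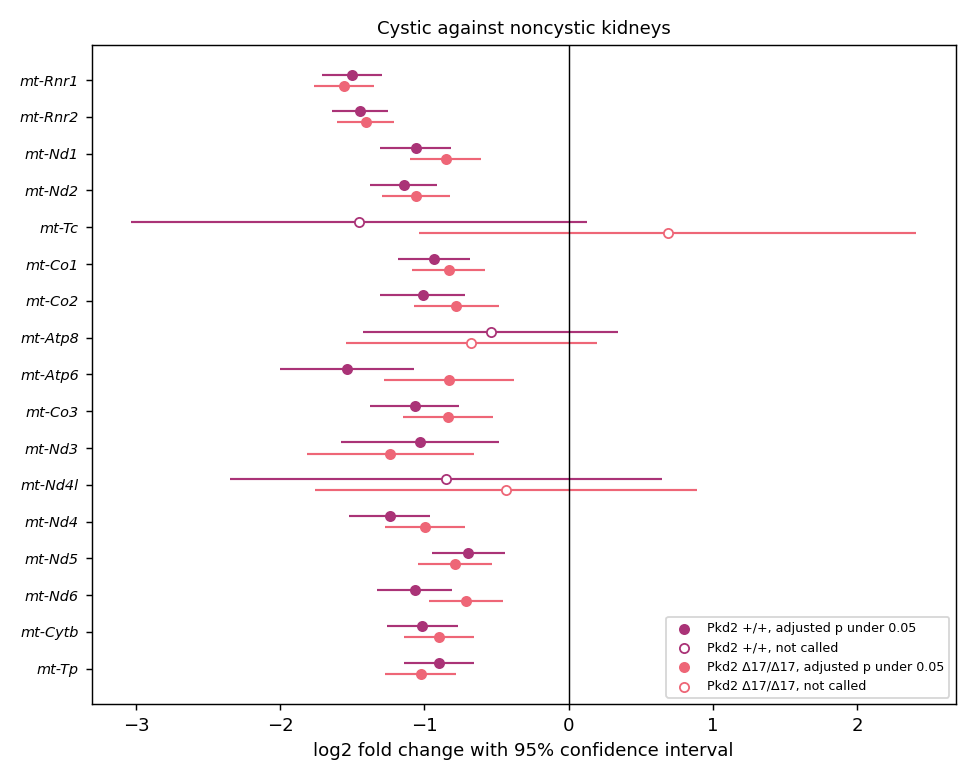
Log2 fold change (x axis) of cystic against noncystic kidneys for the 17 members that passed the filter, in genome order, in Pkd2 +/+ and Pkd2 Δ17/Δ17 mice (n = 3 per group). Lines are 95% confidence intervals, filled points have an adjusted p under 0.05 and open points do not. Of the 17 members 14 lie below 0 with filled points in each genotype, mt-Rnr1 at -1.501 and -1.56.

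Composition within the mitochondrial counts separated all cystic from all noncystic mice for few members. Of the 15 coding and rRNA genes, mt-Rnr1, mt-Rnr2 and mt-Nd2 took a lower share of the members' counts in all 6 cystic than in all 6 noncystic mice, and the ranges of the other genes overlapped. The share of mt-Rnr1 was 2.20% to 2.70% without and 1.52% to 1.92% with cysts, that of mt-Rnr2 3.44% to 4.05% and 2.55% to 3.09%, and that of mt-Nd2 6.73% to 7.03% and 6.04% to 6.36%. The share of mt-Nd5 overlapped, at 5.34% to 7.51% without cysts and 7.38% to 8.29% with cysts. In Pkd2 +/+ mice alone it did not overlap, at 5.34% to 6.90% without and 7.38% to 7.94% with cysts. Within a single genotype the states also separated for mt-Atp6 (Pkd2 +/+, lower with cysts) and mt-Nd6 (Pkd2 Δ17/Δ17, higher with cysts). The share of mt-Co1 overlapped over all mice but was higher with cysts, without overlap, within each genotype. It was 38.2% to 39.5% without and 40.3% to 41.6% with cysts in Pkd2 +/+ mice. In Pkd2 Δ17/Δ17 mice it was 39.2% to 40.4% without and 40.6% to 42.8% with cysts. Per 100 counts of mt-Nd4, mt-Nd5 had 85.7, 82.7 and 116 counts in noncystic Pkd2 +/+ mice, 117, 131 and 121 in noncystic Pkd2 Δ17/Δ17 mice, 149, 141 and 124 in cystic Pkd2 +/+ mice and 166, 135 and 127 in cystic Pkd2 Δ17/Δ17 mice. Mice 19 and 20, both noncystic Pkd2 +/+, were the lowest, and the ranges of the other 10 mice of both states overlapped.

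Deletion of the Pkd2 miR-17 motif was not accompanied by a called change of any mitochondrial gene. In cystic kidneys edgeR called 0 of 17 members (2.23% of all genes tested), limma-trend and DESeq2 likewise called 0, and 1 member had an unadjusted p under 0.05. For no member did the cystic Pkd2 genotypes separate without overlap, against 19% of all genes tested. The 10 members with at least 500 counts in every mouse had log2 fold changes from -0.23 to 0.18, and their 95% confidence intervals ran from -0.48 to 0.44. For mt-Rnr1 the difference was -0.09 (95% interval -0.30 to 0.11), for mt-Co1 0.09 (-0.16 to 0.34) and for mt-Cytb 0.04 (-0.20 to 0.28). The member with the unadjusted p under 0.05 was mt-Atp6, at 2.98, 1.76 and 1.93 CPM in cystic Pkd2 +/+ and 3.70, 3.47 and 2.89 CPM in cystic Pkd2 Δ17/Δ17 mice. Mouse 25 reached into the range of the other genotype, and the log2 fold change was 0.58 ± 0.222 (SE, adjusted p = 0.223). Without mouse 25 it was 0.86 with an adjusted p of 0.0476, and this was the only library whose removal made a member pass the threshold here. mt-Atp6 had 36 to 77 counts in these 6 mice and lies in the stretch copied on chromosome 1.

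In noncystic kidneys edgeR, limma-trend and DESeq2 each called 0 of 17 members for the deletion, no member had an unadjusted p under 0.05, and 0.00406% of all genes tested were called. Log2 fold changes of the 10 well-counted members ran from -0.18 for mt-Nd6 to 0.21 for mt-Nd5, with 95% confidence intervals from -0.45 to 0.46. The interaction asks whether the cystic difference depended on the Pkd2 genotype, and it too was called for 0 of 17 members by edgeR, limma-trend and DESeq2 (0.0122% of all genes tested). Its estimate for mt-Atp6 was 0.71 (adjusted p = 0.552), the 1 member with an unadjusted p under 0.05, and for mt-Nd6 it was 0.36 (95% interval -0.01 to 0.72, adjusted p = 0.613). The deletion contrasts use the same mice as the cystic contrasts, so their values are not independent.

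**Figure D4:**
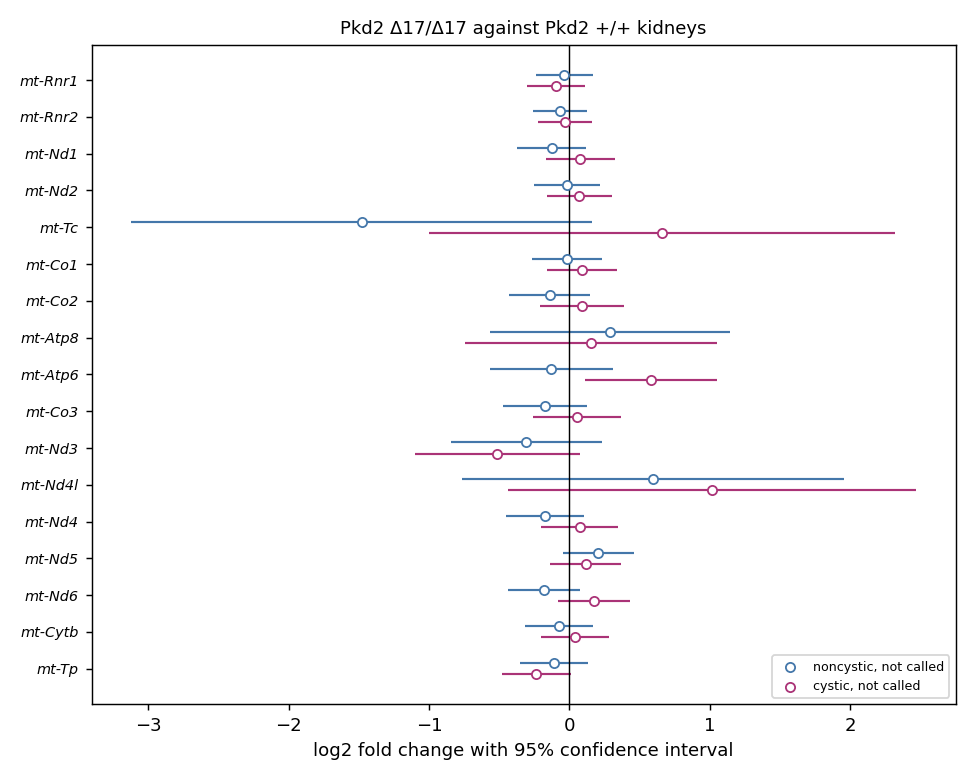
Log2 fold change (x axis) of Pkd2 Δ17/Δ17 against Pkd2 +/+ kidneys for the 17 members, in noncystic and in cystic mice (n = 3 per group), with 95% confidence intervals as lines. All points are open, that is, not called; the interval of mt-Atp6 in cystic kidneys runs from 0.11 to 1.05, and those of mt-Tc and mt-Nd4l are the widest.

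Nuclear genes that serve the mitochondrial genome were described by lists, in the Pkd2 +/+ comparison of cystic against noncystic kidneys. Among 26 genes of mitochondrial DNA maintenance and transcription, 7 fell, 1 rose and 18 were not called, with a median log2 fold change of -0.20. The share called, 30.8%, was near the 31.1% of all genes tested, whereas the share that fell was 26.9%, beside 14.2%. Tfam, which packages mitochondrial DNA and starts its transcription, was at 64.8 ± 4.39 CPM without and 49.6 ± 3.75 CPM with cysts (SD, n = 3; -0.39, adjusted p = 0.00133), the ADP/ATP carrier gene Slc25a4 (-0.56) and the protease gene Lonp1 (-0.38) fell, and the topoisomerase gene Top3a rose (0.43). Among 32 genes of mitochondrial RNA processing, modification and decay, 15 (46.9%) fell and none rose (median -0.22). They included Lrpprc, whose product stabilises mitochondrial mRNAs (-0.56, adjusted p = 1.04e-05), Grsf1, an RNA granule protein (-0.67, adjusted p = 7.16e-06), and Hsd17b10, a subunit of mitochondrial RNase P (-0.64, adjusted p = 1.24e-05). Of 22 mitochondrial aminoacyl-tRNA synthetase and amidotransferase genes 4 fell, among them Gatb (-0.86), Nars2 (-0.60) and Fars2 (-0.46), 2 rose, Cars2 (0.42) and Kars (0.29), and 16 were not called (median -0.06). At 18.2% lower and 27.3% called in all, this list was near the shares of all genes tested.

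Most nuclear genes whose products join the mitochondrially encoded ones fell too. Of 77 mitochondrial ribosomal protein genes, whose products assemble on mt-Rnr1 and mt-Rnr2, 55 (71.4%) fell and none rose (median -0.38), with Mrps6 at -1.36, Mrpl50 at -0.69 and Mrpl51 at -0.60. Of nuclear subunit genes, 36 of 37 fell for complex I (median -0.75), 4 of 4 for complex II (-0.82), 9 of 9 for complex III (-0.85), 11 of 11 for complex IV (-0.81) and 18 of 18 for ATP synthase (-0.74). Complex II has no mitochondrially encoded subunit. Named by smallest adjusted p were Ndufa6 (-0.97), Ndufv1 (-0.94) and Ndufb10 (-0.91) of complex I, Sdhb (-1.002), Sdha (-0.84) and Sdhc (-0.77) of complex II, Uqcrfs1 (-0.94), Uqcrh (-0.78) and Uqcr11 (-0.97) of complex III, Cox6c (-0.99), Cox7b (-0.97) and Cox4i1 (-0.88) of complex IV, and Atp5pb (-0.86), Atp5h (-0.81) and Atp5c1 (-0.73) of ATP synthase. The median over the 13 mitochondrial coding genes was -1.03 and over both rRNA genes -1.47. In Pkd2 Δ17/Δ17 mice the medians of the nuclear subunit lists ran from -0.60 for complex III to -0.54 for ATP synthase, beside -0.83 for the mitochondrial coding genes. There 35 of 37 complex I genes and all 42 of the other complexes fell, as did 39 of 77 ribosomal protein genes (50.6%), 6 of 26 of DNA maintenance and transcription (23.1%), 5 of 32 of RNA processing (15.6%) and 4 of 22 of tRNA charging (18.2%), beside 10.2% of all genes tested. None of these lists held a called rise, beside 12.8% of all genes tested. Between the cystic groups, Grsf1 (0.47, adjusted p = 0.00746) and Mrps6 (0.53, adjusted p = 0.0411) were called higher with the deletion, 2 of the 236 genes of these lists (0.847%), beside 2.23% of all genes tested called in either direction.

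**Figure D5:**
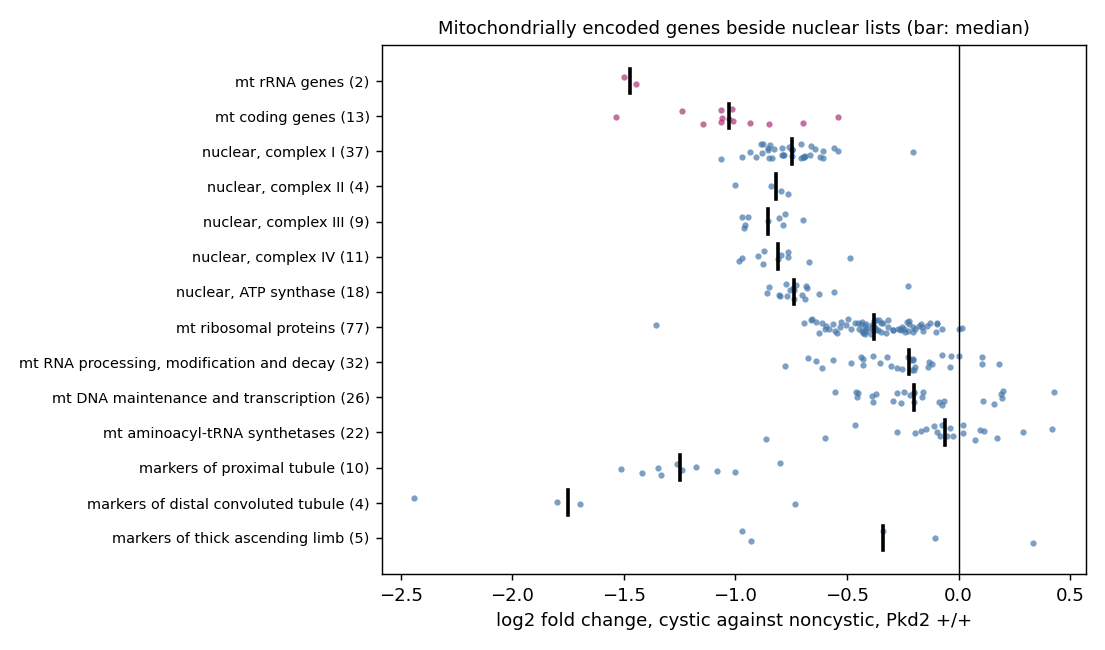
Log2 fold change (x axis) of cystic against noncystic Pkd2 +/+ kidneys for each gene of the lists on the y axis, with the number of genes in brackets. Points are genes and the black bar is the median of a list. Medians are -1.47 for the mitochondrial rRNA genes, -1.03 for the mitochondrial coding genes, -0.75 for nuclear complex I genes and -1.25 for proximal tubule markers.

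Markers of cell types also differed between the states, some lower and some higher with cysts. Among all genes tested, 14.2% fell and 16.9% rose between cystic and noncystic Pkd2 +/+ kidneys. All 10 proximal tubule markers fell in cystic Pkd2 +/+ kidneys (median -1.25), among them the dicarboxylate transporter gene Slc13a3 (-1.42) and the organic anion transporter gene Slc22a6 (-1.08), and their summed level was 12465 to 14379 CPM in noncystic and 4019 to 6169 CPM in cystic mice. All 4 distal convoluted tubule markers fell (summed level 1037 to 1520 against 255 to 543 CPM), among them Slc12a3 (-1.70), Calb1 (-1.80) and Pvalb (-2.44). Of 5 thick ascending limb markers 3 fell, among them Slc12a1 (-0.97) and Kcnj1 (-0.34), and Cldn16 rose (0.33), with a summed level of 2919 to 3475 against 1774 to 2432 CPM. Of 6 collecting duct markers Scnn1g (1.30) and Foxi1 (0.56) rose, Slc4a1 (-2.41), which red blood cells also express, fell, and 3 were not called. All 6 macrophage markers rose, among them Mrc1 (1.89), C1qb (1.87) and Adgre1 (1.79), with a summed level of 121 to 127 against 283 to 392 CPM. Of 7 fibroblast markers 4 rose, among them Col1a1 (1.47), Postn (1.23) and Col1a2 (0.84), and Pdgfra fell (-0.56). All 5 red blood cell markers fell, among them Hbb-bs (-1.41), Hbb-bt (-1.55) and Alas2 (-1.73). In Pkd2 Δ17/Δ17 mice all 10 proximal tubule markers fell as well, beside 10.2% of all genes tested. Their summed level was 14421 to 15222 CPM without and 5476 to 7365 CPM with cysts. Between the cystic groups 2 of these 10 were called higher with the deletion, the endocytic receptor genes Lrp2 (0.64) and Cubn (0.59), where 2.23% of all genes tested were called in either direction and no mitochondrial gene was. In the same contrast 3 of 6 macrophage markers were called lower, Cd68 (-0.63), C1qa (-0.92) and C1qb (-0.87), with a summed level of 283 to 392 CPM in Pkd2 +/+ and 215 to 271 CPM in Pkd2 Δ17/Δ17 mice. Of the thick ascending limb markers Slc12a1 (0.93) was called higher, and the summed level of the 5 was 1774 to 2432 CPM in Pkd2 +/+ and 3338 to 3470 CPM in Pkd2 Δ17/Δ17 mice, without overlap. Lrp2, Cubn, Cd68 and C1qa were named after their values were seen. The part of these shifts in the mitochondrial levels was not tested.

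Tissue outside the kidney differed between libraries as well. All 4 fat markers fell in cystic Pkd2 +/+ kidneys, with log2 fold changes of -3.18 for Cidea, -2.25 for Plin1 and -1.99 for Adipoq. Ucp1, named after its values were seen, averaged 151 CPM in noncystic and 31.1 CPM in cystic mice. Ucp1 and Cidea mark brown fat, a tissue dense in mitochondria, whereas Plin1 and Adipoq are genes of fat cells in general. The summed level of the 4 was 229 to 582 CPM in noncystic and 46.9 to 89.5 CPM in cystic mice. In Pkd2 Δ17/Δ17 mice 2 of 4 fell, and the summed level was 188 to 283 CPM without and 3.42 to 161 CPM with cysts. Mouse 20, noncystic Pkd2 +/+, had the highest level. Adrenal cortex markers summed to 365 CPM in mouse 30 and 52.0 CPM in mouse 27, both cystic, and to between 3.89 and 7.15 CPM in the other 10 mice. The part of fat and adrenal RNA in the mitochondrial levels was not tested. Without mouse 20, 27 or 30 in turn, 14 of 17 members were still called lower in each cystic contrast. This cannot show the part of fat RNA, because the fat difference stayed without mouse 20. Noncystic mice 19 and 21 still had 232 and 229 CPM of the fat markers, above all cystic Pkd2 +/+ mice.

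Scaling moved the fold changes of all genes together but not the calls of members. With library totals in place of TMM factors, the median of all genes rose by 0.16 in the Pkd2 +/+ and by 0.15 in the Pkd2 Δ17/Δ17 comparison on the log2 scale, and the share of called genes that were higher in cystic kidneys went from 54.4% to 71.7% and from 55.7% to 76.3%. All 14 members called in each comparison stayed lower and called under every scaling, including one that left the mitochondrial genome out of the library size.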

How the data were processed

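Right kidneys were flash frozen and libraries were sequenced for the authors, who trimmed reads with Trim Galore 0.6.3, aligned them to GRCm38 with STAR 2.5.3a and Ensembl release 94 gene models, and deposited unnormalized whole-number counts for each gene, taken from STAR's gene table. Library selection and strand setting are not given in the sources used here. The study's own fit was limma-trend on log2CPM with library totals.

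Counts of 54532 genes in 12 mice were tested with edgeR 4.0.16 in R 4.3.3; alternatives used DESeq2 1.42.0 and limma 3.58.1. Genes with a mean log2CPM of at least -3 (prior count 2) were kept, TMM factors applied and 1 mean per group fitted over 12 mice (8 residual degrees of freedom). Positions came from GENCODE M21. Nuclear copies were found with BLAST 2.17.0 among annotated transcripts (at least 200 aligned bases and 95% identity), and those with a mean of at least 10 counts are named. All coding and rRNA genes are named, tRNA genes that passed the filter and, per list, the 3 called genes of smallest adjusted p in each direction, of which 2 are not reported here. Levels per length divide CPM by annotated gene length. Scripts were tested on simulated data. Floors cover counting error only. No pair of mice agreed within sampling noise. Members and lists were chosen with earlier results of these data known. Alternatives were limma-trend, DESeq2, other scalings and filters, a fit of the compared groups alone, adding Xist as covariate, a threshold of 0.01 and leaving out each mouse.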

Additional observations from a re-analysis of the deposited data

How the results depend on the processing

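In each cystic contrast 14 of 17 members were called lower under all 10 alternative settings and without each of the 12 mice. The counts of members called for the deletion in noncystic kidneys and for the interaction stayed at 0 under all alternatives run. For the deletion in cystic kidneys the count was 0 under all other settings and 0 to 1 with a mouse left out, the 1 being mt-Atp6 without mouse 25 (0.86, adjusted p = 0.0476); over all mice left out its adjusted p ran from 0.0476 to 0.511. In that contrast mt-Rnr2 ran from -0.0902 to 0.0228, mt-Co1 from -0.00933 to 0.148 and mt-Cytb from -0.0293 to 0.0799 with a mouse left out, so their signs turned; none was called. The mitochondrial share relative to nuclear counts was 6.79% in noncystic Pkd2 +/+ and 6.65% in noncystic Pkd2 Δ17/Δ17 mice, and without the rRNA genes 5.96% and 5.85%, by construction. Over all genes the deletion calls moved more, from 118 to 1639 in cystic and from 0 to 124 in noncystic kidneys, beside 549 and 1, and interaction calls from 0 to 566, beside 3; the cause was not tested. No paired analysis was possible because each mouse has a number of its own and the groups share none. Members with few counts (mt-Nd4l, mt-Atp8, mt-Tc) had wide intervals, so differences of the size seen in other members were not detectable there.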
